A study of Mus musculus with 15 samples.

Results

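Fatty acid oxidation and ketogenesis genes were examined in the mouse colon as a set of 31 named genes, covering the enzymes, transporters and regulators that burn fatty acids or handle ketone bodies. Members were matched to the array by gene symbol, and 29 of the 31 had a probe set, out of 22142 probe sets in all, of which 19527 carry 1 symbol and 2615 carry none. Etfb, a subunit of the electron transfer flavoprotein, and Acsl1, a long-chain acyl-CoA synthetase, were not analysed here because no probe set bears their symbol. No member had more than 1 probe set.

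Colon tissue from 15 mice aged 11 weeks was profiled on Clariom S arrays, with 1 array and 100 ng of total RNA per mouse. Nemo FL mice (n = 5) carry floxed alleles of Nemo (gene symbol Ikbkg), the regulatory subunit of the kinase complex that activates NF-κB, and served as littermate controls. NEMO IEC-KO mice (n = 5) lack NEMO in intestinal epithelial cells, where Villin-Cre drives the deletion, and develop colitis. NEMO IEC-KO Ripk1 S166A/S166A mice (n = 5), hereafter double-mutant mice (IEC-KO S166A or KO S166A in the plots), have the same epithelial deletion and in addition carry, in every cell, 2 endogenous copies of Ripk1, a kinase of the TNF death pathway, in which serine 166 is replaced by alanine. All 3 groups carry floxed Nemo. Mice are named here by the start of their titles, such as 6_18a, which the plots shorten to 18. The comparisons ask what epithelial NEMO loss does to the expression of these genes in the colon and whether the RIPK1 mutation alters it.

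Fatty acids are activated to acyl-CoA, carried into mitochondria on carnitine and shortened in repeated cycles of dehydrogenation, hydration, dehydrogenation and thiolysis, while peroxisomes oxidise substrates that mitochondria handle poorly. The acetyl-CoA made can enter the citrate cycle or be turned into ketone bodies. Colonocytes are known for drawing much of their energy from oxidation of butyrate, a short-chain fatty acid made by gut bacteria.

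The deposited values run from 1.69 to 13.6, are read here as log2, and have array medians between 6.27 and 6.36. Ikbkg lay between 6.18 and 6.55 in Nemo FL, 4.85 and 5.30 in NEMO IEC-KO and 5.23 and 5.43 in double-mutant mice, so it was lower in both deleted groups than in any Nemo FL mouse. Y chromosome genes marked 1 of 5 Nemo FL mice, 2 of 5 NEMO IEC-KO mice and 5 of 5 double-mutant mice as male, so the groups differ in sex as well as genotype. Nemo FL mouse 10_55a has conflicting labels. Its title places it with the controls and its genotype entry with the deleted mice; it is placed here by its title, and its Ikbkg value was 6.28, where the other 4 Nemo FL mice lay between 6.18 and 6.55. Mouse 18_108a of NEMO IEC-KO and mouse 6_18a of Nemo FL stood apart in some genes and are named where they matter. Arrays of mice 1_94a and 2_95a had interquartile ranges of 3.06 and 3.01, below those of the other 13 arrays.

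Of the 29 genes, 13 were lower in NEMO IEC-KO than in Nemo FL mice, 2 were higher and 14 did not pass the test (limma, adjusted p under 0.05 over all probe sets). Over all probe sets 13.8% passed as lower and 11.6% as higher, and among the 11071 brighter probe sets, where all 29 genes lie, 20% and 15.7%. The median log2 difference was -0.30 over the 29 genes against 0.01 over all probe sets. In double-mutant against NEMO IEC-KO mice 9 genes were higher, 2 were lower and 18 did not pass, where 9.33% of all probe sets passed as higher and 9.9% as lower (13.3% and 15% among the brighter ones). The median was 0.21 over the 29 genes and 0.02 over all probe sets. Both comparisons use the same 5 NEMO IEC-KO mice, so opposite signs in them are not independent results. The groups did not overlap in 13 genes lower and 1 higher in NEMO IEC-KO than in Nemo FL (10.2% and 8.04% of all probe sets), and in 10 higher and 1 lower in double-mutant than in NEMO IEC-KO mice (7.05% and 6.6%). At an adjusted p under 0.01, 10 genes were lower and 1 higher in the first comparison (8.25% and 6.64% of all probe sets), and 7 were higher and 1 lower in the second (4.58% and 4.95%). At a fold over 1.5 with an unadjusted p under 0.05 these counts were 7 and 1 (7.77% and 6.53%) in the first comparison and 7 and 1 (5.6% and 6.49%) in the second. Because whole tissue was used, fewer cells of a type and less RNA per cell cannot be told apart.

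**Figure D1:**
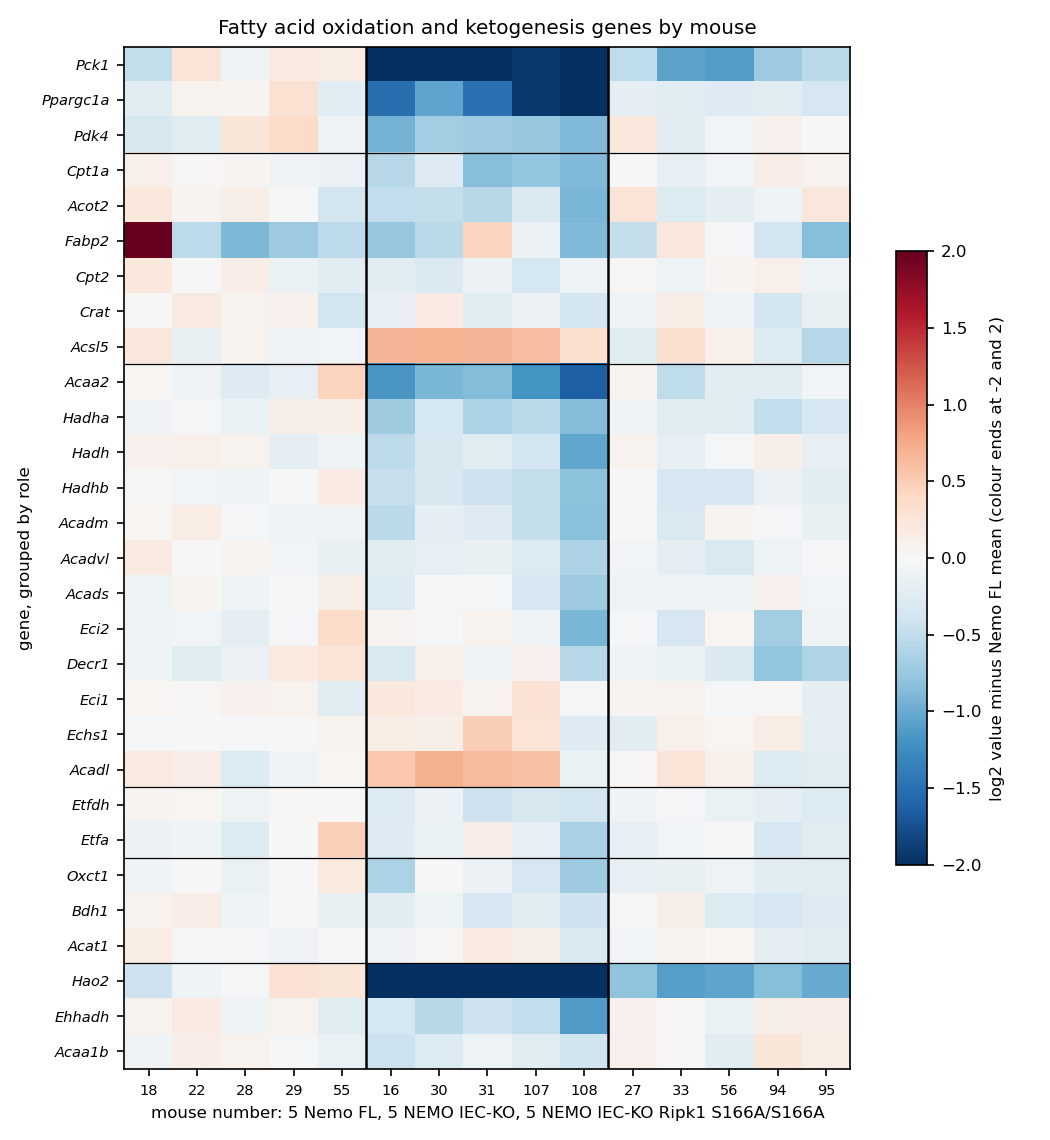
Log2 value minus the Nemo FL mean for each of the 29 measured genes (rows, grouped by role) in each of the 15 mice (columns, grouped by genotype); colours end at -2 and 2. Pck1 and Hao2 are dark blue in every NEMO IEC-KO mouse, Acsl5 is red in all 5, and Fabp2 is high in Nemo FL mouse 6_18a.

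The 3 genes of regulation and fuel choice, Ppargc1a, Pck1 and Pdk4, were all lower in NEMO IEC-KO than in Nemo FL mice and all higher in double-mutant than in NEMO IEC-KO mice. Ppargc1a encodes PGC-1α, a coactivator of genes of mitochondrial biogenesis and fatty acid oxidation. Its log2 values were 10.15, 10.42, 10.41, 10.66 and 10.13 in Nemo FL mice 6_18a, 7_22a, 8_28a, 9_29a and 10_55a, and 8.85, 9.30, 8.87, 8.42 and 8.37 in NEMO IEC-KO mice 11_16a, 12_30a, 13_31a, 15_107a and 18_108a. In double-mutant mice 4_27a, 3_33a, 5_56a, 1_94a and 2_95a they were 10.16, 10.13, 10.09, 10.13 and 10.02. Each NEMO IEC-KO mouse lay below every mouse of the other groups. Ppargc1a fell by 1.59 ± 0.172 (log2, standard error, n = 5 per group) to 33.2% of the Nemo FL level (adjusted p = 8.93e-06 from limma), and between NEMO IEC-KO and double-mutant mice it rose by 1.34 ± 0.161, or 2.53-fold (adjusted p = 5.48e-05).

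Pck1 encodes cytosolic phosphoenolpyruvate carboxykinase, which withdraws oxaloacetate from the citrate cycle for glucose and glycerol synthesis. In the same mouse order its log2 values were 8.61, 9.35, 9.01, 9.25 and 9.24 in Nemo FL, 6.93, 6.69, 6.99, 7.16 and 6.63 in NEMO IEC-KO, and 8.59, 8.02, 7.97, 8.36 and 8.56 in double-mutant mice. The 3 groups did not overlap, with NEMO IEC-KO lowest and Nemo FL highest. Pck1 fell by 2.21 ± 0.153 in NEMO IEC-KO, a 4.63-fold difference from Nemo FL (adjusted p = 1.14e-07 from limma), and was 1.42 ± 0.156 higher in double-mutant than in NEMO IEC-KO mice (adjusted p = 2.58e-05). Pdk4, a kinase that inhibits pyruvate dehydrogenase and so favours fatty acids over glucose as fuel, lay between 6.28 and 6.98 in Nemo FL, 5.65 and 5.90 in NEMO IEC-KO, and 6.38 and 6.81 in double-mutant mice. The NEMO IEC-KO mice were again below all others, by a mean of 0.81 ± 0.141 against Nemo FL (57.2% of that level, adjusted p = 6.61e-04 from limma) and 0.80 ± 0.119 against double-mutant mice (adjusted p = 3.07e-04).

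The peroxisomal gene Hao2 changed most of the 29 genes in both of these comparisons. It encodes a 2-hydroxy acid oxidase. Values in Nemo FL mice were 10.47, 10.80, 10.85, 11.18 and 11.13, in NEMO IEC-KO mice 7.98, 7.53, 7.92, 8.17 and 6.84, and in double-mutant mice 10.08, 9.79, 9.83, 10.03 and 9.88. The 3 groups did not overlap. Hao2 fell by 3.20 ± 0.217 in NEMO IEC-KO, to 10.9% of Nemo FL (adjusted p = 9.56e-08 from limma), and was 2.23 ± 0.203 higher in double-mutant than in NEMO IEC-KO mice, or 4.69-fold (adjusted p = 5.05e-06).

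Ehhadh, the bifunctional enzyme of peroxisomal beta-oxidation, ranged from 7.61 to 8.03 in Nemo FL, 6.72 to 7.51 in NEMO IEC-KO and 7.73 to 7.99 in double-mutant mice. NEMO IEC-KO did not overlap either of the other groups. The difference from Nemo FL was -0.58 ± 0.149 (adjusted p = 0.00911 from limma), and Ehhadh was 0.63 ± 0.148 higher in double-mutant than in NEMO IEC-KO mice (adjusted p = 0.00772). Without double-mutant mice 1_94a and 2_95a that adjusted p was 0.0569, and with a term for sex 0.0904. The peroxisomal thiolase gene Acaa1b did not pass in either comparison, at -0.29 (adjusted p = 0.0662) and 0.34 (adjusted p = 0.0635). Of the 22 alternative settings of each, Acaa1b passed in 4 and 3. Its sequence is close to that of Acaa1a, and the probe sets may share signal.

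**Figure D2:**
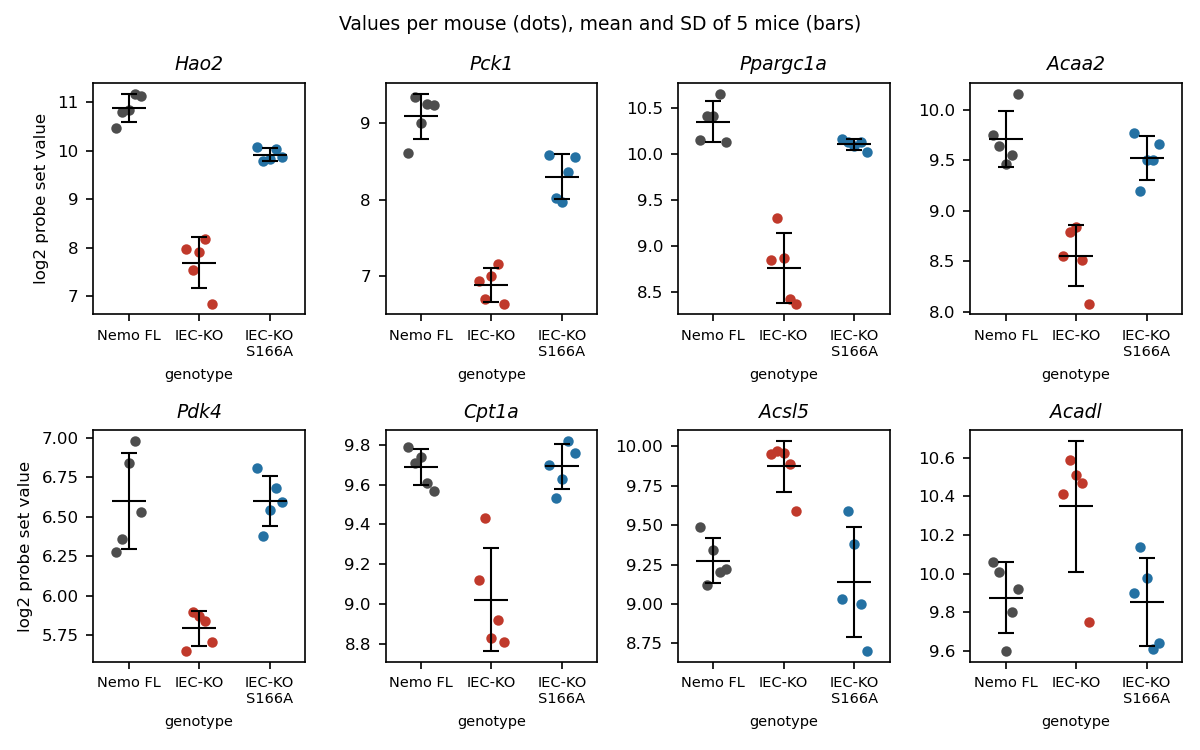
Log2 probe set values per mouse (dots, 5 per genotype) with mean and SD (bars) for 8 genes; each panel has its own axis. All 5 NEMO IEC-KO mice lie below the other groups in Hao2, Pck1, Ppargc1a, Acaa2, Pdk4 and Cpt1a, and above Nemo FL in Acsl5, while in Acadl 1 NEMO IEC-KO mouse, at 9.75, falls inside the Nemo FL range.

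The windows from 250 bases before to 50 bases after the RefSeq start site (GRCm38.p6) are shown for Hao2, Pck1 and Ppargc1a, the 3 genes with the largest falls, and for Acadm, an enzyme gene with a smaller fall. Capitals mark matches to the motifs searched on both strands, which were AGGTCA, the site read by nuclear receptors such as PPAR with their partners, its direct repeat, which is AGGTCA, any 1 base (N) and AGGTCA again, TCAAGGTCA, an estrogen-related receptor element, TGACGTCA, the cAMP response element, and TGACG, a shorter form of it. AGGTCA is part of the direct repeat and of the estrogen-related receptor element, and TGACG is part of the full cAMP response element. A match on the opposite strand reads in these lines as its reverse complement, CGTCA or TGACCT. The windows lie at chr3:98893181-98893480 (minus strand) for Hao2, chr2:173152823-173153122 (plus strand) for Pck1, chr5:51567676-51567975 (minus strand) for Ppargc1a and chr3:153944594-153944893 (minus strand) for Acadm. For Hao2 and Ppargc1a the start site used lies inside the gene model, which extends further upstream.
Hao2: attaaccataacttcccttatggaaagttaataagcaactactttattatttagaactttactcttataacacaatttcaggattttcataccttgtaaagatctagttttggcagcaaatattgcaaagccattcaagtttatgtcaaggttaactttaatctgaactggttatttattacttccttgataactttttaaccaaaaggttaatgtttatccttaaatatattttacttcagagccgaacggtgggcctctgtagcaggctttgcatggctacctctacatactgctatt
Pck1: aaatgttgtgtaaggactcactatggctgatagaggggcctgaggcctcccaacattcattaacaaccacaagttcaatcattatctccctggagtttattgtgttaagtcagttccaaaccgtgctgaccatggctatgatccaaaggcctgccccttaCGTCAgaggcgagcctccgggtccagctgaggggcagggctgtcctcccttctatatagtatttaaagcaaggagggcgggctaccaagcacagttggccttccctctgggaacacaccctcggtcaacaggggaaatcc
Ppargc1a: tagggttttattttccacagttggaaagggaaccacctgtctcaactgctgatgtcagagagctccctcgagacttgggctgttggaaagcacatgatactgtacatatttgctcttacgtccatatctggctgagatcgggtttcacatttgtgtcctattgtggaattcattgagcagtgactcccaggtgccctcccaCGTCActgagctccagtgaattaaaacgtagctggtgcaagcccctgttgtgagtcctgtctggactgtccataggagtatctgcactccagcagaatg
Acadm: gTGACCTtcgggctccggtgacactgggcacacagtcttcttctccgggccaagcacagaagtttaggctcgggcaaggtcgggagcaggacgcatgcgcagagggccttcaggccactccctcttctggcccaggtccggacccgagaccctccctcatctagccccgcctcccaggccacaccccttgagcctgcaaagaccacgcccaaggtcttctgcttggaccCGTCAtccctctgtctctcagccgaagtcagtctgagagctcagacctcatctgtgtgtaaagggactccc

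The Pck1 window holds TGACG on the opposite strand 90 bases before the start, and the Ppargc1a window holds it 49 bases before the start. In Acadm, AGGTCA stands 249 bases and TGACG 21 bases before the start, both on the opposite strand. The Hao2 window, from the gene with the largest fall, holds none of the 5 motifs. Of the 25 measured genes with a window, 4 held AGGTCA (Acadm, Acadvl, Cpt1a and Echs1), against 16.3% of all 32851 windows, and 7 held TGACG (Acadm, Acot2, Ehhadh, Etfa, Etfdh, Pck1 and Ppargc1a), against 20.8%. The other 3 motifs occurred in 0 of the 25 and in 0.0396% (direct repeat), 0.423% (TCAAGGTCA) and 1.79% (TGACGTCA) of all windows. These are matches of letters only.

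Of the 6 measured genes of activation and uptake, 2 were lower (Cpt1a and Acot2) and 1 higher (Acsl5) in NEMO IEC-KO than in Nemo FL mice. These shares, 33.3% and 16.7%, stand against 13.8% and 11.6% of all probe sets, and 20% and 15.7% of the brighter ones. Cpt1a encodes the carnitine palmitoyltransferase that sets the rate of fatty acid entry into mitochondria. Its values were 9.79, 9.71, 9.74, 9.61 and 9.57 in Nemo FL, 9.12, 9.43, 8.83, 8.92 and 8.81 in NEMO IEC-KO, and 9.70, 9.53, 9.63, 9.82 and 9.76 in double-mutant mice. Every NEMO IEC-KO mouse was below every other mouse, while the ranges of the remaining groups overlapped. Cpt1a fell by 0.67 ± 0.130 to 63.1% of Nemo FL (adjusted p = 0.0015 from limma) and was 0.67 ± 0.136 higher in double-mutant than in NEMO IEC-KO mice (adjusted p = 0.00313). Acot2, a mitochondrial acyl-CoA thioesterase that releases free fatty acid, fell by 0.55 ± 0.140 (adjusted p = 0.00951), with NEMO IEC-KO at 7.21 to 7.84 and Nemo FL at 7.76 to 8.34. It was 0.55 ± 0.148 higher in double-mutant than in NEMO IEC-KO mice (adjusted p = 0.0175, but 0.148 with a term for sex and 0.0876 without mice 1_94a and 2_95a). That call for Acot2 was lost in 7 of 22 alternative settings. Its neighbour in sequence Acot1 was at 0.00 in NEMO IEC-KO against Nemo FL (adjusted p = 0.993), although the probe sets of such close copies may share signal.

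Acsl5, a long-chain acyl-CoA synthetase, went the other way. Its values were 9.49, 9.12, 9.34, 9.20 and 9.22 in Nemo FL, 9.95, 9.97, 9.96, 9.89 and 9.59 in NEMO IEC-KO, and 9.03, 9.59, 9.38, 9.00 and 8.70 in double-mutant mice. All 5 NEMO IEC-KO values were above the Nemo FL range. Acsl5 rose by 0.60 ± 0.118, or 1.52-fold, in NEMO IEC-KO (adjusted p = 0.0016 from limma) and was 0.74 ± 0.160 lower in double-mutant than in NEMO IEC-KO mice (adjusted p = 0.00483).

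Cpt2, the carnitine palmitoyltransferase of the inner mitochondrial membrane, differed by -0.21 in NEMO IEC-KO against Nemo FL (95% interval -0.46 to 0.03, adjusted p = 0.202). Crat, the carnitine acetyltransferase, differed by -0.14 (-0.42 to 0.14, adjusted p = 0.492). The fatty acid binding protein gene Fabp2, best known from absorptive cells of the small bowel, was at 10.13 in Nemo FL mouse 6_18a and between 6.55 and 6.93 in the other 4 Nemo FL mice. It ranged from 6.57 to 7.90 in NEMO IEC-KO and from 6.60 to 7.67 in double-mutant mice, and its difference of -0.37 had a 95% interval of -1.50 to 0.75. In mouse 6_18a the small bowel genes Apoa4, Apoa1, Fabp6 and Sis stood at 8.17, 8.12, 8.40 and 5.52, the highest of the Nemo FL mice. The mean of 9 small bowel genes was 7.37 in mouse 6_18a and as low as 6.23 among Nemo FL mice (mouse 8_28a). In double-mutant mouse 3_33a that mean was 7.14, with Fabp6 at 10.33 and Fabp2 at 7.67. Whether the level of the small bowel genes in mouse 6_18a accounts for its Fabp2 value was not tested.

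In mitochondrial beta-oxidation, 5 of 12 measured genes were lower in NEMO IEC-KO than in Nemo FL mice and 1 was higher. These shares, 41.7% and 8.33%, stand against 13.8% and 11.6% of all probe sets, and 20% and 15.7% of the brighter ones. Acaa2, the thiolase of the last step, showed the largest fall among them. Its values were 9.75, 9.64, 9.46, 9.55 and 10.16 in Nemo FL, 8.55, 8.79, 8.84, 8.51 and 8.08 in NEMO IEC-KO, and 9.77, 9.20, 9.50, 9.50 and 9.66 in double-mutant mice. NEMO IEC-KO did not overlap the other groups. Acaa2 fell by 1.16 ± 0.163 to 44.9% of Nemo FL (adjusted p = 1.05e-04 from limma) and was 0.97 ± 0.157 higher in double-mutant than in NEMO IEC-KO mice (adjusted p = 6.05e-04). With mouse 10_55a moved to NEMO IEC-KO on the strength of its genotype entry, none of the beta-oxidation calls of this comparison held. Acaa2 then stood at -0.77 (adjusted p = 0.124), Hadha at -0.48 (0.0946), Hadhb at -0.34 (0.188), Hadh at -0.46 (0.101), Acadm at -0.42 (0.092) and Acadl at 0.41 (0.167).

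Both subunit genes of the mitochondrial trifunctional protein, Hadha and Hadhb, which carries out the last 3 reactions on long chains, fell in NEMO IEC-KO. Hadha ranged from 10.30 to 10.56 in Nemo FL, 9.57 to 10.08 in NEMO IEC-KO and 9.94 to 10.35 in double-mutant mice. Hadhb ranged from 9.89 to 10.15, from 9.16 to 9.66 and from 9.64 to 9.99 in the same order. For both, NEMO IEC-KO lay below Nemo FL without overlap and overlapped double-mutant mice. The falls were 0.63 ± 0.118 (adjusted p = 0.00119) and 0.49 ± 0.118 (adjusted p = 0.00596 from limma). Neither passed between double-mutant and NEMO IEC-KO mice, at 0.35 ± 0.128 (adjusted p = 0.0661) and 0.29 ± 0.128 (adjusted p = 0.127), but Hadha passed there in 7 of 22 alternative settings, among them all 3 groups in 1 fit (adjusted p = 0.0336).

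Hadh, the dehydrogenase for medium and short 3-hydroxyacyl chains, fell by 0.50 ± 0.145 (adjusted p = 0.0188 from limma), from a range of 10.41 to 10.69 in Nemo FL to 9.55 to 10.35 in NEMO IEC-KO. It was 0.47 ± 0.150 higher in double-mutant than in NEMO IEC-KO mice (adjusted p = 0.0385), a call lost in 13 of 22 alternative settings (adjusted p up to 0.328), 7 of them removals of 1 mouse. Acadm, the medium-chain acyl-CoA dehydrogenase, fell by 0.46 ± 0.129 (adjusted p = 0.0162), with Nemo FL at 8.73 to 8.97 and NEMO IEC-KO at 7.98 to 8.62. Its difference of 0.37 ± 0.138 between double-mutant and NEMO IEC-KO mice did not pass (adjusted p = 0.072), but passed in 4 of 22 alternative settings. Acadvl and Acads, the acyl-CoA dehydrogenases for very long and for short chains, stood at -0.29 (adjusted p = 0.0897) and -0.27 (adjusted p = 0.16) and did not pass.

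Acadl, the long-chain acyl-CoA dehydrogenase, was the 1 higher gene of the beta-oxidation group. Values were 10.06, 10.01, 9.60, 9.80 and 9.92 in Nemo FL, 10.41, 10.59, 10.51, 10.47 and 9.75 in NEMO IEC-KO, and 9.90, 10.14, 9.98, 9.61 and 9.64 in double-mutant mice. Of the NEMO IEC-KO mice, 4 were above all others and mouse 18_108a was inside the range of both other groups. Acadl rose by 0.47 ± 0.157 (adjusted p = 0.0382 from limma) and was 0.49 ± 0.166 lower in double-mutant than in NEMO IEC-KO mice (adjusted p = 0.0489). Each call was lost in 13 of 22 alternative settings, among them a term for sex, under which the adjusted p was 0.0583 and 0.0572.

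Among the remaining beta-oxidation genes, Eci1 and Echs1, an enoyl-CoA isomerase and the short-chain enoyl-CoA hydratase, differed by 0.14 and 0.16 in NEMO IEC-KO relative to Nemo FL mice. Eci2, a second isomerase, and Decr1, the 2,4-dienoyl-CoA reductase, differed by -0.18 and -0.16. None of these 4 passed in either comparison, and their groups overlapped. The electron transfer genes hand electrons from acyl-CoA dehydrogenases to the respiratory chain. Etfdh, which encodes the oxidoreductase of this step, fell by 0.30 ± 0.104 in NEMO IEC-KO (adjusted p = 0.0457 from limma), a call lost in 16 of 22 alternative settings (adjusted p up to 0.176), and differed by 0.16 between double-mutant and NEMO IEC-KO mice (adjusted p = 0.368). Etfa, a flavoprotein subunit, did not pass, at -0.21 (adjusted p = 0.368) and 0.05 (adjusted p = 0.845).

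None of the 3 measured ketone body genes passed in any comparison. Bdh1, which interconverts acetoacetate and 3-hydroxybutyrate, differed by -0.26 in NEMO IEC-KO against Nemo FL (95% interval -0.49 to -0.03, adjusted p = 0.0898 from limma). Oxct1, which activates acetoacetate for use as fuel, differed by -0.36 (-0.67 to -0.05, adjusted p = 0.0827), and by -0.41 with a term for sex, when it passed (adjusted p = 0.0464). In this comparison Oxct1 passed in 3 and Bdh1 in 1 of 22 alternative settings. Acat1, the acetoacetyl-CoA thiolase, differed by -0.01 (-0.26 to 0.24, adjusted p = 0.962).

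Within NEMO IEC-KO, mouse 18_108a was the lowest of the 5 mice in 25 of 29 genes. The mean over the 29 genes was 8.12 in mouse 18_108a and up to 8.62 (mouse 13_31a) in this group, against 8.91 to 9.05 in Nemo FL and 8.75 to 8.89 in double-mutant mice, so every NEMO IEC-KO mouse was below both other groups. The mean of 6 distal colon markers was 7.63 in mouse 18_108a and 8.3 to 8.73 in the rest of its group. In Nemo FL it was 8.5 to 8.7. Whether the colon segment sampled differed was not tested. Leaving out mouse 18_108a left 12 genes lower and 2 higher than in Nemo FL (13.1% and 11.8% of all probe sets). Leaving out mice 6_18a and 18_108a together, chosen after their values were seen, left 9 lower and 2 higher (12.5% and 11.4% of all probe sets), and Acadm, Hadh, Acot2 and Etfdh lost their calls. In female mice alone (4 Nemo FL and 3 NEMO IEC-KO) 13 were lower and 1 was higher (9.8% and 6.85% of all probe sets). In male mice alone (5 double-mutant and 2 NEMO IEC-KO) 7 were higher and 2 lower in the former (8.47% and 9.77% of all probe sets). With all mice of these groups and a term for sex, 6 were higher and 1 lower (8.58% and 9.62%).

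Counting mouse 10_55a as NEMO IEC-KO left 7 genes lower and 0 higher in NEMO IEC-KO than in Nemo FL mice (4.82% and 3.34% of all probe sets), and 5 higher and 0 lower in double-mutant than in NEMO IEC-KO mice (2.99% and 3.48%). Under that reading Hao2 differed by -2.56 in NEMO IEC-KO against Nemo FL and kept its call (adjusted p = 0.0293 from limma), but it lost the call between double-mutant and NEMO IEC-KO mice (1.66, adjusted p = 0.0757), as did Pck1 (1.03, adjusted p = 0.107), Acaa2 (0.70, 0.137), Acsl5 (-0.63, 0.0516), Hadh (0.40, 0.126) and Acadl (-0.42, 0.145). In NEMO IEC-KO against Nemo FL, 8 of the 15 calls were lost, those of the beta-oxidation genes given above, Etfdh (-0.25, adjusted p = 0.176) and Acsl5 (0.48, adjusted p = 0.0813).

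Comparing double-mutant with Nemo FL mice, 1 of 29 genes passed as lower, Hao2, and 0 as higher, where 0.0361% and 0.0181% of all probe sets passed, or 0.0542% in either direction. Hao2 also passed at an adjusted p under 0.01 (0.0271% of all probe sets lower, 0.00903% higher), and 2 genes, Hao2 and Pck1, were lower at a fold over 1.5 with an unadjusted p under 0.05 (0.379% of all probe sets). Hao2 was 0.97 ± 0.137 lower (51.2% of the Nemo FL level, adjusted p = 0.00874 from limma), with the groups not overlapping (2 genes, Hao2 and Pck1, against 0.903% of all probe sets). It missed the threshold with all 3 groups in 1 fit (adjusted p = 0.0665) and without mice 1_94a and 2_95a (0.0718). At an unadjusted p under 0.05, 4 genes were lower and 0 higher, against 5.25% and 5.3% of all probe sets. They were Hao2, Pck1 at -0.79 ± 0.163 (adjusted p = 0.114 from limma), Decr1 at -0.38 ± 0.151 (adjusted p = 0.428) and Hadha at -0.27 ± 0.111 (adjusted p = 0.428). Without Nemo FL mouse 6_18a the Pck1 difference was -0.91 and passed (adjusted p = 0.0208).

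The other 25 genes lay between -0.30 and 0.06, and 26 of all 29 were below 0, with a median of -0.14 against 0.01 over all probe sets. Ppargc1a differed by -0.25 (95% interval -0.50 to 0.00, adjusted p = 0.474), Acaa2 by -0.19 (-0.50 to 0.12), Cpt1a by 0.00 (-0.22 to 0.23), Pdk4 by 0.00 (-0.31 to 0.30) and Acsl5 by -0.14 (-0.46 to 0.19). These intervals are the limits that 5 mice per group set, and they do not show that the groups are alike. The double-mutant mice were all male, and 10_55a, whose labels conflict, was the 1 male Nemo FL mouse. Its values were 11.13 for Hao2 and 9.24 for Pck1, where double-mutant mice had 9.79 to 10.08 and 7.97 to 8.59. That mouse alone cannot separate sex from genotype, and the part of sex in these differences was not tested.

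**Figure D3:**
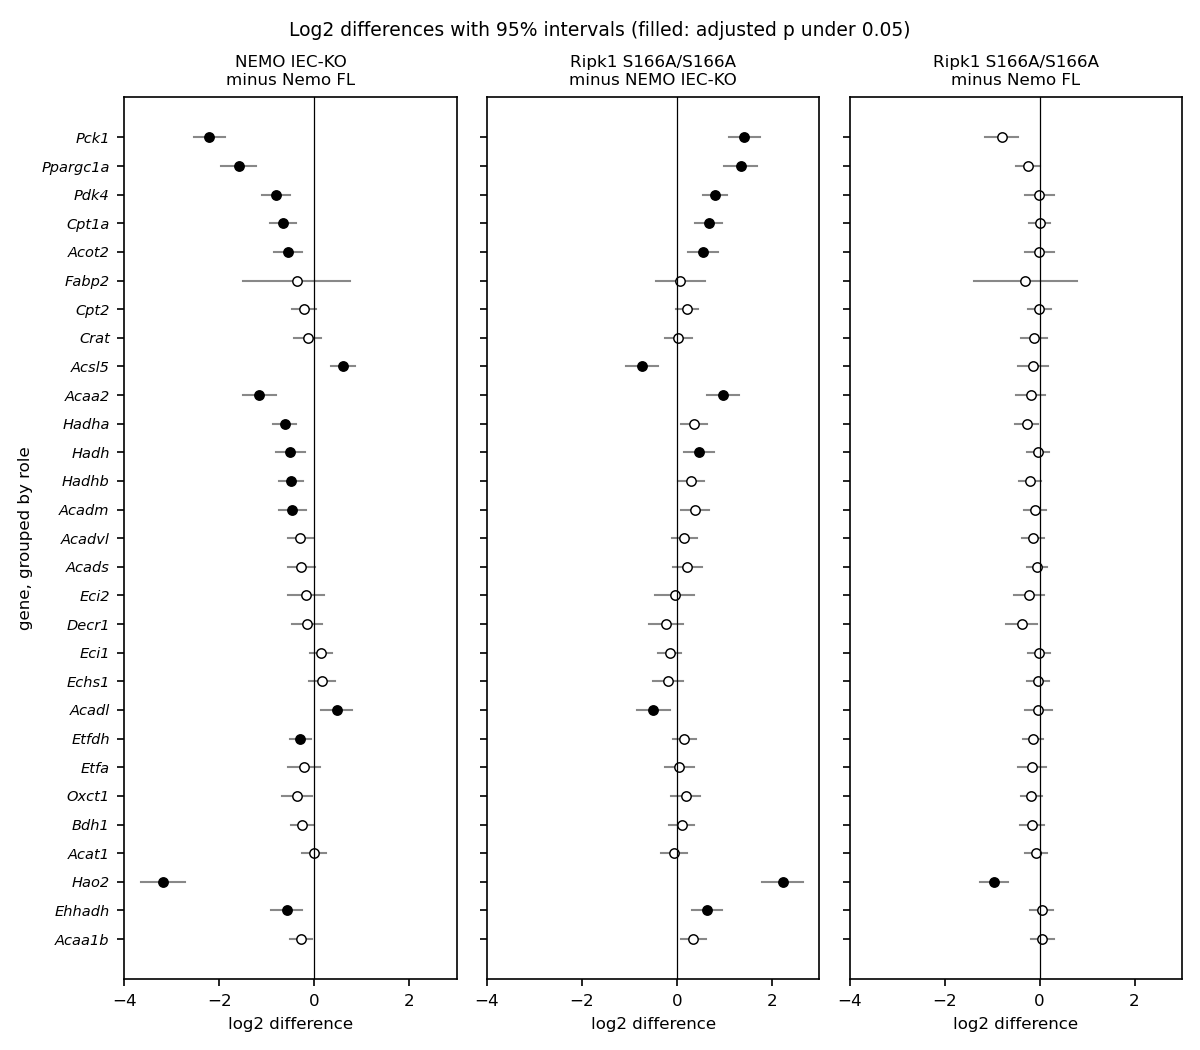
Log2 differences (dots) with 95% intervals (lines) for the 29 genes in the 3 comparisons, 5 mice per group; filled dots have an adjusted p under 0.05. In the left panel 13 filled dots lie below 0 and 2 above, in the middle 9 above and 2 below, and in the right only Hao2 is filled.

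Related genes outside the set were counted in the same way in 6 lists. Of all probe sets, 13.8% passed as lower and 11.6% as higher in NEMO IEC-KO against Nemo FL. In double-mutant against NEMO IEC-KO mice 9.33% passed as higher and 9.9% as lower. The list of 18 other mitochondrial acyl-CoA oxidation genes also held enzymes of amino acid and propionate breakdown. Of the 18, 7 were lower (38.9%) and 0 higher in NEMO IEC-KO than in Nemo FL mice (median -0.30). They were led by Aldh6a1, an enzyme of valine breakdown, at -1.36 (adjusted p = 0.00246 from limma), Acad11, an acyl-CoA dehydrogenase, at -0.97 (2.94e-04), and the carboxylase subunit genes Mccc1 and Pccb of leucine and propionate breakdown, at -0.80 (0.00163) and -0.72 (8.73e-04). In double-mutant against NEMO IEC-KO mice 5 of the 18 were higher (27.8%) and 0 lower. Among them, Aldh6a1, Acad11 and Pccb lost this call with a term for sex. These genes and Mccc1 lost it with mouse 10_55a counted as NEMO IEC-KO. Of 18 other peroxisomal genes, 4 were lower and 0 higher. The 22.2% lower stands against 13.8% of all probe sets and 20% of the brighter ones. They were the isomerase genes Eci3 (-1.40, adjusted p = 3.68e-06 from limma) and Ech1 (-0.53, 0.0186), the thiolase gene Acaa1a (-0.50, 0.00488) and the reductase gene Decr2 (-0.41, 0.0288). The Decr2 call was lost in 7 of the 10 removals of 1 mouse (adjusted p up to 0.0772). Eci3 alone of the 18 was called higher in double-mutant than in NEMO IEC-KO mice, by 1.05 (adjusted p = 1.30e-04, but 0.0676 with mouse 10_55a counted as NEMO IEC-KO). That share, 5.56%, was below the 9.33% of all probe sets.

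Of 11 other ketogenesis and short-chain acid genes, 5 were lower and 2 higher in NEMO IEC-KO than in Nemo FL mice. These shares, 45.5% and 18.2%, stand against 13.8% and 11.6% of all probe sets. Slc5a8, a sodium-coupled transporter that takes up butyrate, lay between 11.49 and 11.77 in Nemo FL, 10.19 and 10.79 in NEMO IEC-KO, and 11.42 and 11.60 in double-mutant mice. It fell by 1.04 ± 0.127 in NEMO IEC-KO (adjusted p = 2.98e-05 from limma) and was 0.94 higher in double-mutant than in NEMO IEC-KO mice (adjusted p = 1.84e-04). Acsm3, a medium-chain acyl-CoA synthetase, fell by 0.88 (adjusted p = 1.48e-04). The monocarboxylate transporter genes Slc16a3, known for lactate export, and Slc16a6 rose by 1.31 (adjusted p = 1.23e-05) and 0.89 (adjusted p = 0.00644). In double-mutant against NEMO IEC-KO mice, 7 of the 11 were higher and 2 lower (63.6% and 18.2%, against 9.33% and 9.9% of all probe sets).

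Of 18 PPAR pathway regulators and targets, 6 were lower and 0 higher in NEMO IEC-KO than in Nemo FL mice. The share lower was 33.3%, against 13.8% of all probe sets. Pdk2, a second pyruvate dehydrogenase kinase, fell by 1.22 (adjusted p = 9.22e-05 from limma), Plin2, a lipid droplet coat protein, by 0.80 (4.29e-04), Hnf4a, a transcription factor of the gut epithelium and liver, by 0.65 (0.009), and Ppargc1b, the relative of Ppargc1a, by 0.62 (0.016). Ppara, the receptor best known for inducing fatty acid oxidation genes, did not pass, at -0.42 (adjusted p = 0.0546). In double-mutant against NEMO IEC-KO mice 7 of the 18 were higher (38.9%, against 9.33% of all probe sets) and 0 lower.

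Of 20 other genes of fatty acid uptake, activation and carnitine handling, 3 were lower and 2 higher in NEMO IEC-KO than in Nemo FL mice, a share near that of all probe sets. Cd36, a fatty acid translocase, fell by 1.43 (adjusted p = 2.45e-04 from limma), the transport protein gene Slc27a1 by 0.90 (3.69e-04) and Cpt1b, the muscle form of carnitine palmitoyltransferase, by 0.48 (0.0202), while Dbi, the acyl-CoA binding protein, rose by 0.58 (0.0068). In the citrate cycle and pyruvate dehydrogenase list 3 of 19 were lower and 1 higher (15.8% and 5.26%), near or below the 13.8% and 11.6% of all probe sets. Ogdh, Sdha and Idh3a, all citrate cycle enzymes, fell by 0.53 (adjusted p = 0.00916), 0.40 (0.0244) and 0.39 (0.0202), and Mdh2, the mitochondrial malate dehydrogenase, rose by 0.40 (0.0364). With 1 mouse left out, the Mdh2 call was lost in 6 of 10 removals (adjusted p up to 0.0795), that of Sdha in 4 (0.0747), Cpt1b in 3 (0.0555) and Idh3a in 1 (0.0526). With mouse 10_55a counted as NEMO IEC-KO, 11 genes named from these lists lost their calls against Nemo FL, namely Slc16a6, Cd36, Slc27a1, Dbi, Cpt1b, Aldh6a1, Mccc1, Ech1, Mdh2, Sdha and Idh3a. Of the named genes, 17 were called between double-mutant and NEMO IEC-KO mice, and there 11 lost the call with mouse 10_55a so counted. They were Slc16a6, Acsm3, Slc27a1, Dbi, Cpt1b, Aldh6a1, Acad11, Mccc1, Pccb, Eci3 and Ogdh. A term for sex removed 4 of the 17 calls (Aldh6a1, Acad11, Pccb and Ogdh). Leaving out mice 1_94a and 2_95a removed 6 (Dbi, Cpt1b, Aldh6a1, Pccb, Ppargc1b and Ogdh). Between double-mutant and Nemo FL mice, 0 of the 104 genes of these 6 lists passed in either direction by limma, where an unadjusted p under 0.05 picked out 12 as lower and 4 as higher (11.5% and 3.85%, against 5.25% and 5.3% of all probe sets).

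**Figure D4:**
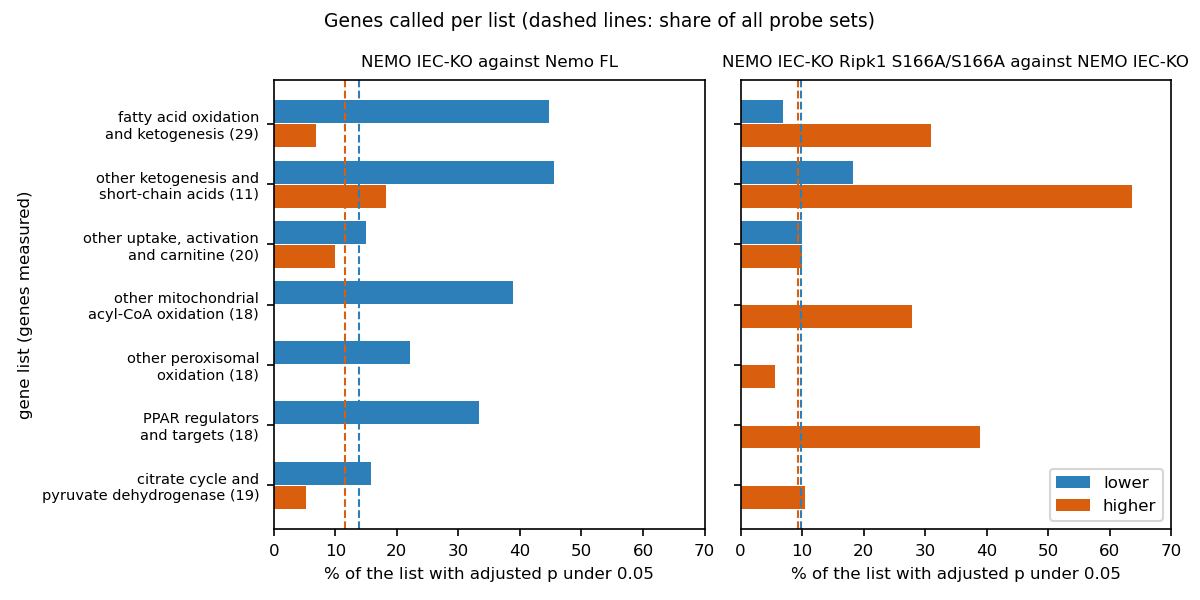
Share of each gene list with an adjusted p under 0.05, lower (blue) or higher (orange), in 2 comparisons; numbers measured stand beside each name and dashed lines give the share of all probe sets. In the left panel 44.8% of the fatty acid oxidation and ketogenesis genes are lower and 6.9% higher. In the right panel 31% are higher and 6.9% lower. Dashed lines do not show the brighter probe sets, where the 29 genes lie. Of those, 20% are lower and 15.7% higher on the left. On the right 13.3% are higher and 15% lower.

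Markers of cell types moved with these genes. Of 9 absorptive colonocyte markers, 7 were lower and 1, Aqp4, was higher in NEMO IEC-KO than in Nemo FL mice, and the list mean per mouse was 10.89 to 11.2 in Nemo FL, 8.95 to 9.62 in NEMO IEC-KO and 10.75 to 11.17 in double-mutant mice. All 7 smooth muscle markers were lower, with list means of 11.3 to 11.75, 8.68 to 10.62 and 11.11 to 11.75 in the same order, and mouse 18_108a was the lowest. Of 9 leukocyte markers 8 were higher, with list means of 5.94 to 6.75, 7.91 to 9.12 and 6.39 to 7.00, and mouse 18_108a was the highest. Markers of epithelium in general did not move in this way. Of these 11 genes 0 were lower and 1 was higher, and list means were 10.62 to 10.89, 10.69 to 10.82 and 10.73 to 10.97. Epcam, which defines epithelial cells, lay between 11.75 and 12.01 in all 15 mice. Of 9 adipocyte markers 3 were lower, Adipoq and Fabp4 among them, and list means were 5.16 to 5.90, 5.02 to 5.16 and 5.03 to 5.69. The part of these cell types in the changes of the 29 genes was not tested.

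**Figure D5:**
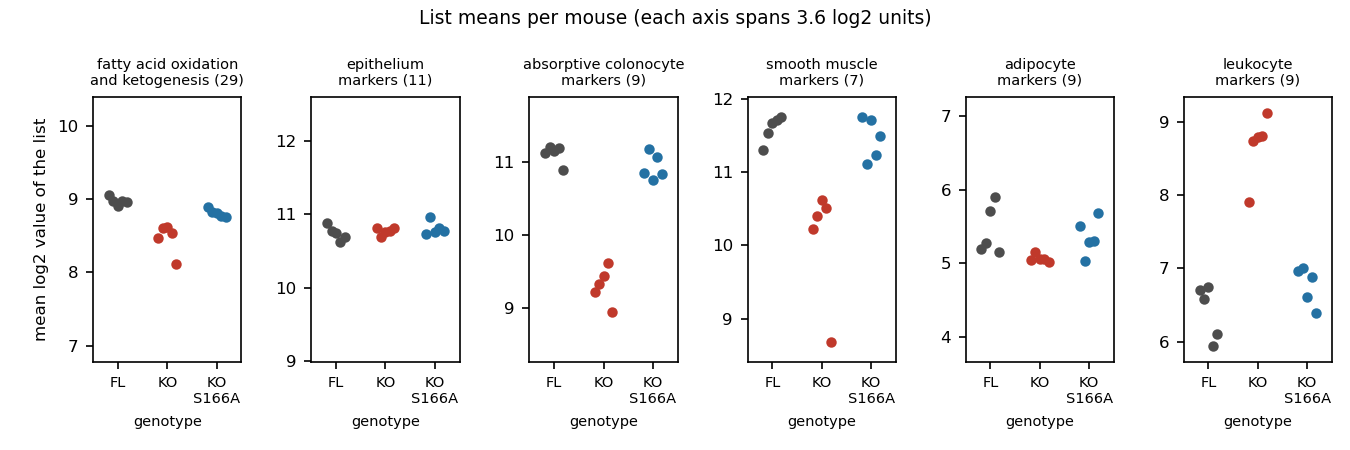
Mean log2 value per mouse (dots) of the 29 fatty acid oxidation and ketogenesis genes and of 5 marker lists, with the number of genes in brackets; each axis spans the same number of log2 units. NEMO IEC-KO mice are below the other groups in the panels of the 29 genes, of absorptive colonocyte markers and of smooth muscle markers, and above them in the leukocyte panel, while the general epithelium markers overlap.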

How the data were processed

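Colon RNA of 15 mice was hybridised to Clariom S mouse arrays. The deposited table holds 22142 probe sets by 15 arrays, which the authors' processing notes tie to Affymetrix Expression Console and Transcriptome Analysis Console. The deposited values are read as log2 from their range, and the base, background correction and normalization are not given in the sources used here. Probe sets were named through the platform annotation with mouse RefSeq symbols (GRCm38.p6); the 2615 without a symbol stayed in the tests.

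Values were used as deposited, with no filter. For each comparison only its 10 arrays entered the fit (limma 3.58.1, R 4.3.3, two-sided moderated test), and p-values were adjusted by the Benjamini-Hochberg method across the whole table; called means an adjusted p under 0.05. The code was tested on simulated data. The 5 mice per group are separate animals, and their number limits the precision. Groups came from titles. The 29 genes and the lists were chosen with earlier results of these data known. Named genes are all members, for Nemo FL against double-mutant those at an unadjusted p under 0.05, the 4 largest called changes of each other pathway list, and Ppara, Ppard, Ppargc1b, Cpt1b, Acaa1a and Acot1 (Ppard has no probe set under its symbol), and some listed genes are not reported here; further marker genes, and the differences near 0 given with intervals, were chosen after their values were seen. Promoter windows were read from RefSeq with Python 3.11.15. Alternatives covered the fit, scaling, dim probe sets, sex, mouse 10_55a, thresholds and mice left out. The highest correlation between 2 arrays was 0.9928, so none was a copy of another.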

Additional observations from a re-analysis of the deposited data

Results flagged for a closer look

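Within a group of 5 mice, 13 of 165 combinations of gene and group had 1 mouse set apart from the others by more than 0.71 of the group's range, where chance gives about 1 in 20. NEMO IEC-KO mouse 18_108a was the lowest of its group in 5 of them, at 9.75 for Acadl, 8.23 for Acadvl, 6.72 for Ehhadh, 7.49 for Eci2 and 9.59 for Acsl5. Nemo FL mouse 10_55a was the lowest of its group at 7.55 for Eci1, 10.09 for Hnf4a and 9.64 for Mdh2, and the highest at 8.77 for Eci2. Nemo FL mouse 6_18a was the highest for Fabp2 at 10.13, where the next mouse stood at 6.93. In NEMO IEC-KO mouse 12_30a, Acsm3 was the highest at 10.11. In double-mutant mice, Acads was the highest in mouse 1_94a at 8.55 and Decr2 in mouse 3_33a at 8.52.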

How the results depend on the processing

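Genes lower in NEMO IEC-KO than in Nemo FL mice numbered 13, and 12 to 14 with 1 mouse left out; they numbered 7 with mouse 10_55a counted as NEMO IEC-KO and 7 at a fold over 1.5 with an unadjusted p under 0.05. Genes higher there numbered 2, and 1 to 2 with 1 mouse left out, 0 with mouse 10_55a moved, and 1 each with a term for sex, in female mice only, at an adjusted p under 0.01 and at the fold rule. In double-mutant against NEMO IEC-KO mice, 9 were higher (7 to 11 with 1 mouse left out, 5 with mouse 10_55a moved). With a term for sex 6 were higher (8.58% of all probe sets), and without mice 1_94a and 2_95a also 6 (6.01%). In this comparison 2 were lower (1 to 2 with 1 left out, 0 with mouse 10_55a moved, and 1 each with a term for sex, without mice 1_94a and 2_95a, at an adjusted p under 0.01 and at the fold rule). Against Nemo FL, 1 was lower (1 to 2 with 1 mouse left out), 0 with all 3 groups in 1 fit, 0 without mice 1_94a and 2_95a, and 2 at the fold rule, and 0 were higher in every setting run. Counts in the remaining settings were within 1.5 times of these. Cpt1a, Pdk4 and Ppargc1a kept both calls in all 22 settings of each comparison, and Hao2 and Pck1 kept theirs in NEMO IEC-KO against Nemo FL.

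Signs turned only for genes with no call. In NEMO IEC-KO against Nemo FL, Acat1 stood at 0.0031 with array weights, 0.014 with arrays centred and 0.10 without mice 6_18a and 18_108a; Acot1 at -0.0081 with array weights, -0.11 with mouse 10_55a moved, -0.0318 with a sex term and -0.27 in females; Etfa at 0.024 with mouse 10_55a moved and Fabp2 at 0.43 without mice 6_18a and 18_108a. With 1 mouse left out the ranges were -0.0597 to 0.0649 for Acat1, -0.13 to 0.0931 for Acot1, -0.24 to 8e-04 for Eci2 and -0.59 to 0.30 for Fabp2. In double-mutant against NEMO IEC-KO, Acot1 stood at -0.0432 with array weights, -0.0223 centred, -0.0362 after quantile normalization, -0.0852 without mice 1_94a and 2_95a, and -0.30 with a sex term and in males; Etfa at -0.0636 with mouse 10_55a moved and -0.14 with a sex term and in males; Fabp2 at -0.47 and Ech1 at -0.002 with a sex term and in males; and without mice 1_94a and 2_95a Eci2 stood at 0.0714 and Acat1 at 0.0305. With 1 mouse left out the ranges were -0.0843 to 0.14 for Acot1, -0.0569 to 0.14 for Etfa, -0.0563 to 0.28 for Fabp2, -0.23 to 0.076 for Eci2 and -0.0337 to 0.11 for Crat. The cause was not tested. No listed symbol had a second probe set, so that alternative was not run. No paired analysis was possible because mouse numbers are not shared between groups. The restrictions to 1 sex and the removal of mice 6_18a and 18_108a were chosen after seeing the data. Signal over background could not be judged from the deposited values.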
